A study of Homo sapiens with 6 samples.

Results

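The albumin family and plasma carrier genes are 10 genes of liver cells, picked by name from the 26475 genes of the table: ALB, AFP, AFM and GC of the albumin family, TTR, RBP4 and TTPA, which carry hormone or vitamins, and A1BG, AGT and AMBP, which encode other plasma proteins. They were followed in RNA sequencing libraries of HepG2, an established human liver cancer line. Of 6 libraries, 3 came from cells made to express TAF2, which is part of the TFIID complex that binds core promoters, and 3 from control cells with the fluorescent reporter eGFP. Cells were growing exponentially when RNA was taken. The sources used here do not give how TAF2 and eGFP were introduced, whether a group is 1 clone, or whether its libraries are separate cultures. The p-values below therefore speak to the variation among the libraries at hand, and that variation may be technical.

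Albumin, the main protein of adult plasma, binds fatty acids, bilirubin and drugs, and alpha-fetoprotein (AFP) is its counterpart in the fetal liver, which is silenced after birth and often made again in liver cancer. Both genes arose by duplication and lie side by side on chromosome 4 with AFM (afamin, a vitamin E carrier), while GC (vitamin D binding protein) lies farther along the same arm. Transthyretin (TTR) carries thyroxine and holds the retinol carrier RBP4 in the circulation. TTPA, the alpha-tocopherol transfer protein, is a cytosolic protein that moves vitamin E out of the hepatocyte, so it is a carrier but not a plasma protein.

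The promoters of the 3 clustered genes are shown first because the genes are neighbours of one family. ALB and AFP were at similar high levels but changed unequally, and AFM was close to absent and not tested. Whether the promoters bear on this was not tested. Each runs from 250 bases before the RefSeq transcript start to 50 bases from it, on the plus strand of GRCh38.p14, at chr4:73404037-73404336 for ALB, chr4:73435971-73436270 for AFP and chr4:73481495-73481794 for AFM. Capitals mark TATA where it begins between positions -40 and -20, and CCAAT, a common promoter element, on either strand.
ALB: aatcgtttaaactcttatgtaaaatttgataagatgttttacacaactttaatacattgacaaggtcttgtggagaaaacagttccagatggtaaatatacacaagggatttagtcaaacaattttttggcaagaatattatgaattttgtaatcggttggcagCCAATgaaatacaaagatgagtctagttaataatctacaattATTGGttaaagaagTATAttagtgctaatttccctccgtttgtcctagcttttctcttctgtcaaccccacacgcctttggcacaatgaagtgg
AFP: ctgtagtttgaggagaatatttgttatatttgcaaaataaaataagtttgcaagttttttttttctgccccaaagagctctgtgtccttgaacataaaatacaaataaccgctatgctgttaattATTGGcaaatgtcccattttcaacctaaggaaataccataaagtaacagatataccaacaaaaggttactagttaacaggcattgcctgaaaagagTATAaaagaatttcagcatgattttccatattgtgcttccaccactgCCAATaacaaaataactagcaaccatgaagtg
AFM: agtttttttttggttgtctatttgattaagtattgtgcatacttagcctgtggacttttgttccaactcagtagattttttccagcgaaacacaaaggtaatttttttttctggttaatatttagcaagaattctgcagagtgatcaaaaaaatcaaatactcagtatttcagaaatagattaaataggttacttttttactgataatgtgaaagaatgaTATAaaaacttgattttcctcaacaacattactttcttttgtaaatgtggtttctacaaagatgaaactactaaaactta

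TATA began at -30 in ALB, -29 in AFP and -30 in AFM, counting the base before the start as -1. In this place on the sense strand it was found in 6.17% of 35116 RefSeq promoter windows. The longer TATAAA, searched on both strands of the whole window and overlapping those TATA matches, was present in AFP and AFM and had no match in ALB, against 11.5% of all windows. CCAAT, also searched on both strands, was at -86 and -44 in ALB and at -125 and 19 in AFP, had no match in AFM, and was in 34.6% of all windows. Among the other genes with a window, AGT had TATAAA at -30. The 3 windows of RBP4 had it at -31, at 5 and 7, and at -227 and -225. The windows with matches at 5 and at -227 overlap, so 5 and 7 are the same bases as -227 and -225. AMBP and A1BG had no TATA in the place searched. These matches describe letters, not bound sites.

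Total counts per library ran from 22276308 to 28024004. TAF2 itself averaged 48.6 ± 1.37 CPM (counts scaled to library size) in TAF2 libraries and 37.9 ± 2.31 CPM in eGFP libraries (SD, n = 3 each), and its log2 fold change was 0.36 with an SE of 0.046 (edgeR adjusted p = 1.44e-08). Against a change of more than 1.2-fold it was not past the threshold (adjusted p = 0.0518). The sources used here do not say whether this row includes the introduced copy. All 8 markers of hepatocyte-derived cells, ALB, AFP and TTR among them, were measured, with a sum of 37061 to 38846 CPM in TAF2 and 45641 to 47260 CPM in eGFP libraries. Of 5 fibroblast and stellate markers DCN and LUM were at 0, and the list's sum was 20.3 to 21.8 CPM in TAF2 and 8.14 to 9.22 CPM in eGFP libraries, nearly all of it PDGFRB. The endothelial list summed to 0.549 to 0.714 CPM in TAF2 and 0.295 to 1.08 CPM in eGFP libraries, with KDR at 0. Of the blood markers PTPRC, CD3E and HBB were at 0, and the sum, all CD68, was 34.7 to 37.01 CPM in TAF2 and 45.5 to 49.1 CPM in eGFP libraries. The cholangiocyte list summed to 577 to 586 CPM in TAF2 and 547 to 558 CPM in eGFP libraries, but its genes went both ways. KRT19 averaged 264 CPM in TAF2 and 212 CPM in eGFP libraries. SOX9 averaged 221 CPM in TAF2 and 231 CPM in eGFP libraries, EPCAM 97.2 CPM in TAF2 and 108 CPM in eGFP libraries. KRT7 was close to absent.

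ALB, AFP, RBP4, TTPA, A1BG and AGT had their 3 TAF2 levels below their 3 eGFP levels, as did AFM at counts too low to test. None of the 10 genes was higher. Among the 8 that could be tested, TTPA, A1BG and ALB changed most. Of the 8 genes with enough counts to be tested, 7 were lower at an edgeR adjusted p under 0.05 and 0 were higher, whereas 22.4% of all 12902 tested genes were lower, 20.6% higher and 43.0% either by the same rule. The median log2 fold change (TAF2 over eGFP) of the 8 was -0.30, against -0.0027 over all tested genes. Groups did not overlap, with TAF2 lower, for 6 of the 8, against 26.1% of all tested genes, 24.5% with TAF2 higher and 50.6% in either direction. Of the 8 genes, 5 averaged 100 CPM or more: ALB, AFP, RBP4 and AGT, which were lower, and AMBP, which was not called. Among all 2197 tested genes at that level 26.0% were lower and 37.1% higher. Against a change of more than 1.2-fold, 4 genes stayed lower (TTPA, A1BG, ALB and AGT), where 6.01% of all tested genes did. In such bulk samples fewer cells of a type and less RNA per cell cannot be told apart.

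**Figure D1:**
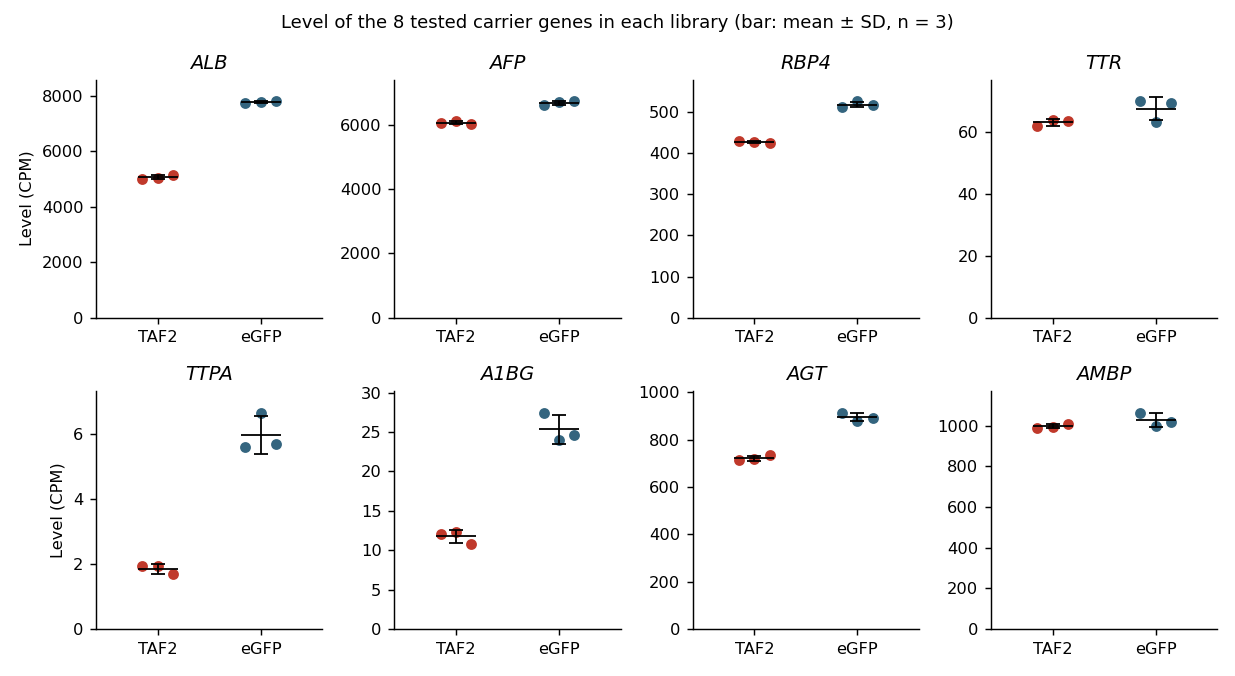
Level of the 8 tested genes in CPM (vertical axes, each starting at 0) in the 3 TAF2 and 3 eGFP libraries, with points for libraries and bars for mean ± SD. The groups are apart for ALB, AFP, RBP4, TTPA, A1BG and AGT, and overlap for TTR and AMBP.

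ALB lies on chromosome 4, 73404287 to 73421482 (GRCh38.p14). Its level was 5011, 5050 and 5146 CPM in the TAF2 libraries, against 7728, 7771 and 7800 CPM in the eGFP libraries. All TAF2 libraries were low and all eGFP libraries high, and the spread within a group was small beside the gap between groups. The level averaged 5069 ± 69.5 CPM in TAF2 and 7766 ± 36.1 CPM in eGFP libraries (SD, n = 3 each), 34.7% lower, with a log2 fold change of -0.62 (95% interval -0.65 to -0.58, edgeR adjusted p = 3.6e-29). Only 4.49% of tested genes had a lower log2 fold change. ALB made up 0.502%, 0.506% and 0.514% of all counts in TAF2 libraries and 0.772%, 0.775% and 0.778% in eGFP libraries.

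AFP begins 31.9 kb from the start of ALB and spans 73436221 to 73456174. Its level was 6067, 6118 and 6043 CPM in the TAF2 libraries and 6612, 6704 and 6739 CPM in the eGFP libraries. The groups were again apart, by less than for ALB. The mean was 6076 ± 38.4 CPM in TAF2 and 6685 ± 65.9 CPM in eGFP libraries (SD, n = 3 each), 9.11% lower, with a log2 fold change of -0.14 (95% interval -0.17 to -0.10, edgeR adjusted p = 8.56e-09). The difference was not past the threshold when a change of more than 1.2-fold was asked for (adjusted p = 1).

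The unequal change of the neighbours turned round their order. The ratio of ALB to AFP counts within a library was 0.826, 0.825 and 0.852 in TAF2 libraries, against 1.17, 1.16 and 1.16 in eGFP libraries. Every TAF2 library held fewer ALB than AFP counts, and every eGFP library more. Per transcript length (2263 bases for ALB, 2484 for AFP) the ratio averaged 0.916 ± 0.0164 in TAF2 and 1.28 ± 0.0068 in eGFP libraries (SD, n = 3 each). In an exact two-sided permutation test the ratios of the groups differed at p = 0.1, the smallest that 3 against 3 libraries allow, with all 3 TAF2 libraries below all 3 eGFP libraries. This ratio does not depend on how libraries are scaled.

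**Figure D2:**
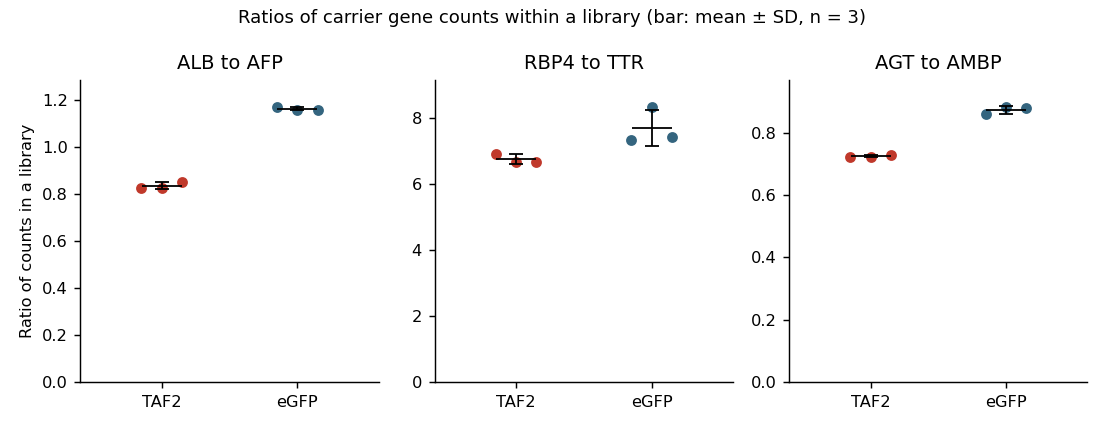
Ratios of counts within each library (vertical axes, from 0, no unit) for ALB to AFP, RBP4 to TTR and AGT to AMBP, with points for libraries and bars for mean ± SD in 3 TAF2 and 3 eGFP libraries. The ALB to AFP ratio lies below 1 in every TAF2 library and above 1 in every eGFP library.

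AFM and GC were close to absent in these cells, at counts too low for the test. AFM (73481745 to 73504001 on chromosome 4) had 1, 5 and 4 counts in TAF2 libraries and 10, 6 and 9 counts in eGFP libraries. Its summed counts were 10 in TAF2 and 25 in eGFP libraries, a ratio of rates of 0.381 (exact 95% interval 0.163 to 0.822, which covers counting error only). GC (71741693 to 71805520) had 0, 0 and 1 counts in TAF2 libraries and 3, 0 and 0 counts in eGFP libraries, at or below the limit of 3 counts that a count of 0 allows over a group (0.0384 CPM in TAF2, 0.0403 CPM in eGFP), so no fold is given.

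Other genes of chromosome 4 were also mostly lower with TAF2. Of 356 with a mean of at least 5 CPM, members left out, 317 (89.04%) had a log2 fold change below 0, with a median of -0.18 and quartiles of -0.27 and -0.09. Lower calls made up 57.9% of its 413 other tested genes. The log2 fold change of AFP (-0.14) lay inside these quartiles, with 62.6% of the chromosome's genes lower than it. That of ALB was 0.44 below the median, and 14 of the 356 genes (3.93%) were lower than it. The part of the chromosome's shift in either value was not tested.

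Within 1 Mb of the start of ALB the table listed 19 genes, AFP and AFM among them, and 4 of the others were tested, 2 lower and 0 higher. ANKRD17, an ankyrin repeat protein, averaged 198 ± 3.14 CPM in TAF2 and 222 ± 4.34 CPM in eGFP libraries (SD, n = 3 each), with a fitted log2 change of -0.16 (edgeR adjusted p = 6.38e-07). COX18, an assembly factor of cytochrome oxidase, had -0.16 with an edgeR adjusted p of 0.0404, and was not past the threshold without TAF2 replicate 1 (0.115), TAF2 replicate 2 (0.154), eGFP replicate 1 (0.158) or eGFP replicate 2 (0.132), with DESeq2 (0.152), or with the replicate number as a block (0.0552). The chemokine CXCL8 had -0.35 (edgeR adjusted p = 0.0583, but 0.0135 without TAF2 replicate 3 and 0.0226 without eGFP replicate 1, and 0.0446 with the block), and MTHFD2L, a mitochondrial folate enzyme, -0.26 (edgeR adjusted p = 0.389). Around GC the tested neighbours DCK (-0.30), MOB1B (-0.26) and GRSF1 (-0.10) were lower. None of these 7 neighbours had a log2 fold change as low as that of ALB.

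**Figure D3:**
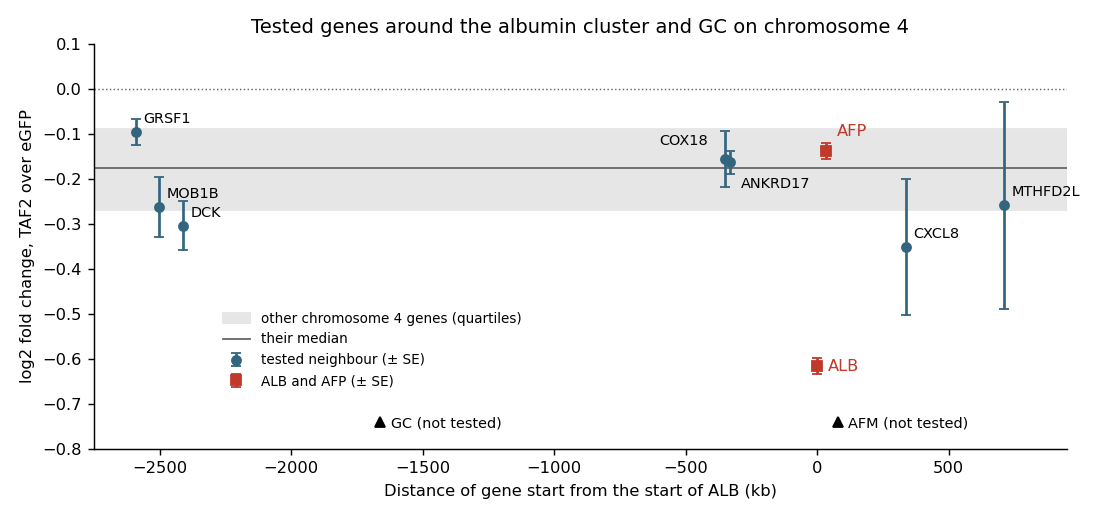
The log2 fold change (TAF2 over eGFP, vertical axis) of tested genes within 1 Mb of ALB or GC against the distance of their start from that of ALB in kb (horizontal axis), with SE bars, and AFM and GC marked below as not tested. AFP and its neighbours lie near the band of the chromosome's quartiles (-0.27 to -0.09), and ALB lies at -0.62.

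RBP4 and TTR, whose proteins travel together, both had lower means in TAF2 libraries, RBP4 by more. RBP4 (chromosome 10, 93591694 to 93601744) was at 429, 428 and 424 CPM in TAF2 libraries, against 513, 527 and 517 CPM in eGFP libraries. The groups were apart, with a log2 fold change of -0.28 (95% interval -0.32 to -0.24, edgeR adjusted p = 1.79e-14), 17.7% lower, not past the threshold against a change of 1.2-fold (adjusted p = 0.489). Other genes of chromosome 10 had a median of 0.0029, and 6.05% of them were lower than RBP4.

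TTR (chromosome 18, 31591877 to 31598821) was at 62.1, 64.2 and 63.7 CPM in TAF2 libraries and at 70.1, 63.3 and 69.7 CPM in eGFP libraries. The groups overlapped, since eGFP replicate 2 lay between the TAF2 libraries. Its log2 fold change of -0.10 (95% interval -0.18 to -0.02) was just past the threshold (edgeR adjusted p = 0.0391). It was not past it without TAF2 replicate 1 (adjusted p = 0.142), TAF2 replicate 2 (0.0671), TAF2 replicate 3 (0.0766), eGFP replicate 1 (0.228) or eGFP replicate 3 (0.177), nor with DESeq2 (0.15), upper-quartile scaling (0.0802) or the replicate number as a block (0.0612). Over 16 alternatives its log2 fold change ran from -0.14 to -0.07 (log2), with adjusted p from 0.00501 to 1.

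The RBP4 to TTR ratio of counts was 6.91, 6.67 and 6.66 in TAF2 libraries and 7.32, 8.32 and 7.42 in eGFP libraries. All TAF2 ratios were below all eGFP ratios (exact two-sided permutation p = 0.1, the smallest possible). The eGFP ratios were spread over a wider range, with eGFP replicate 2 the highest.

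TTPA had the largest change among the tested genes of the group. The gene (chromosome 8, 63058409 to 63086053) was expressed at a low level, with 1.95, 1.92 and 1.68 CPM in TAF2 libraries, against 5.61, 6.66 and 5.69 CPM in eGFP libraries. These levels rest on 48, 49 and 47 counts in TAF2 and 152, 148 and 142 counts in eGFP libraries, and all TAF2 libraries were far below all eGFP libraries. TTPA was 69.1% lower, with a log2 fold change of -1.69 (95% interval -1.99 to -1.40, edgeR adjusted p = 6.15e-13). Of all tested genes 0.589% had a lower log2 fold change, and of 343 other genes of chromosome 8 with a mean of at least 5 CPM 0% did. TTPA itself averaged 1.85 CPM in TAF2 and 5.99 CPM in eGFP libraries, below that limit over the 6 libraries. The chromosome 8 set thus leaves out genes at its own low level. The 3 tested genes within 1 Mb of its start had log2 fold changes from -0.38 to 0.0017.

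A1BG, which encodes the plasma protein alpha-1B-glycoprotein of the immunoglobulin superfamily, followed (chromosome 19, 58345183 to 58353492). It was at 12.1, 12.4 and 10.7 CPM in TAF2 libraries, against 27.4, 23.9 and 24.7 CPM in eGFP libraries, with the groups well apart. The log2 fold change was -1.12 (95% interval -1.26 to -0.98, edgeR adjusted p = 2.88e-17), 53.9% lower. Of 47 tested genes within 1 Mb 1 was called lower and 6 higher, where 22.4% of all tested genes were lower and 20.6% higher. Only 0.444% of 675 other genes of chromosome 19 were lower than A1BG. The antisense gene A1BG-AS1, which overlaps it, had 0 counts in every TAF2 library and 2, 0 and 0 counts in eGFP libraries, so few reads were assigned to it. Without knowing whether strand was used, reads of the overlap cannot be told apart. The next gene ZNF497 had a log2 fold change of -0.03 (edgeR adjusted p = 0.905).

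AGT was lower with TAF2, and AMBP was not called. AGT (chromosome 1, 230702523 to 230745583) encodes angiotensinogen, the precursor of the angiotensin peptides. Its level was 714, 717 and 733 CPM in TAF2 libraries, against 914, 881 and 892 CPM in eGFP libraries, and the groups did not overlap. The log2 fold change was -0.31 (95% interval -0.35 to -0.27, edgeR adjusted p = 2.51e-16), 19.4% lower. Its 13 tested neighbours within 1 Mb had a median of 0.02. Of these 0 were called lower and 1 higher, where 22.4% of all tested genes were lower and 20.6% higher.

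AMBP (chromosome 9, 114060127 to 114078300) encodes a precursor that is cut into alpha-1-microglobulin, a lipocalin, and bikunin, a protease inhibitor. Its level was 988, 993 and 1006 CPM in TAF2 libraries and 1063, 999 and 1016 CPM in eGFP libraries. The groups overlapped, and the log2 fold change of -0.04 was not past the threshold (edgeR adjusted p = 0.101), with a 95% interval from -0.09 to 3.56e-05. Without eGFP replicate 2 it was -0.06 (adjusted p = 0.0263), and over 16 alternatives it ran from -0.06 to -0.01 with adjusted p from 0.0263 to 1. The ratio of AGT to AMBP counts was 0.723, 0.722 and 0.728 in TAF2 libraries, against 0.859, 0.882 and 0.878 in eGFP libraries (exact two-sided permutation p = 0.1, the smallest possible), again without overlap.

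**Figure D4:**
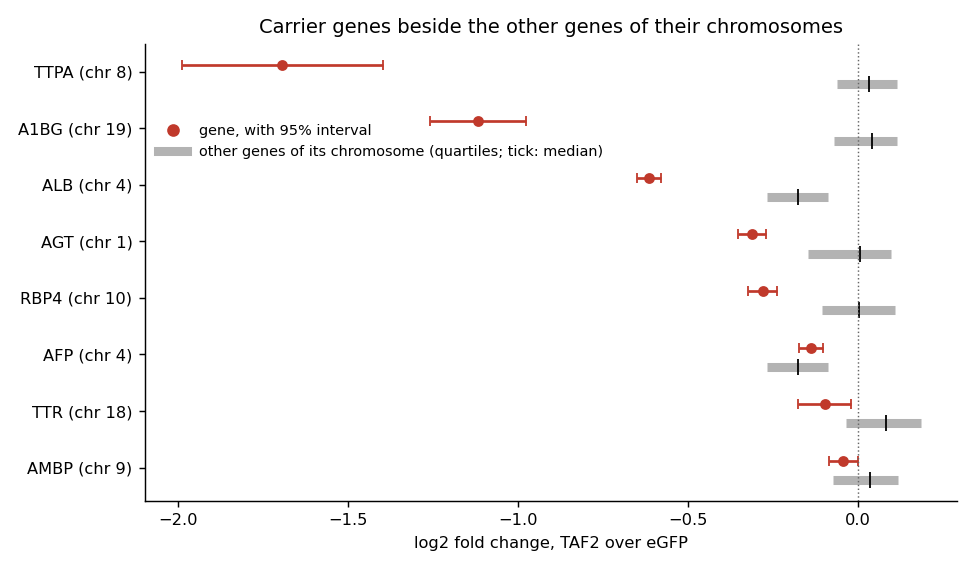
The log2 fold change (TAF2 over eGFP, horizontal axis) of the 8 tested genes with 95% intervals; grey bars below each show the quartiles, and ticks the median, of the other genes of at least 5 CPM on the same chromosome. AFP lies within the bar of chromosome 4, TTR and AMBP are close to 0, and TTPA is at -1.69.

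Levels between genes were compared as CPM per kb of transcript. In TAF2 libraries AFP led with 2446 ± 15.5, followed by ALB with 2240 ± 30.7 (SD, n = 3). In eGFP libraries ALB led with 3432 ± 15.97, followed by AFP with 2691 ± 26.5 (SD, n = 3). Below them the order was the same in both groups, and each step was larger than the SDs of its neighbours: AMBP, RBP4, AGT, TTR, A1BG, TTPA, AFM and GC. AMBP was at 694 ± 6.57 in TAF2 and 715 ± 23.3 in eGFP libraries, TTR at 66.2 ± 1.14 in TAF2 and 70.7 ± 3.97 in eGFP libraries, and TTPA at 0.791 ± 0.0636 in TAF2 and 2.56 ± 0.25 in eGFP libraries (CPM per kb, SD, n = 3 each). The last step, from AFM to GC, rests on a few counts. Together the 10 genes summed to 13285, 13386 and 13429 CPM in TAF2 libraries, against 16934, 16975 and 17065 CPM in eGFP libraries. ALB and AFP took 1.11% to 1.12% of all counts in TAF2 libraries, out of 1.33% to 1.34% for the 10 genes, and 1.43% to 1.45% in eGFP libraries, out of 1.69% to 1.70%.

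**Figure D5:**
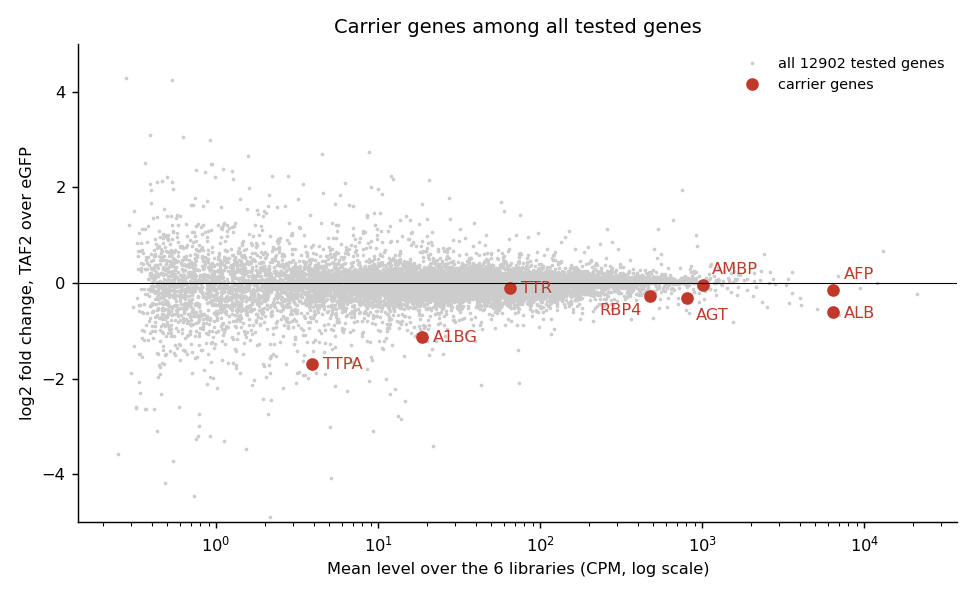
The log2 fold change (TAF2 over eGFP, vertical axis) of all 12902 tested genes against their mean level in CPM (horizontal log axis), with the 8 tested carrier genes in red, and 7 genes beyond 5 in either direction not drawn. ALB and AFP sit at nearly the same level, far to the right, and TTPA and A1BG at low levels near the lower edge of the cloud.

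The other plasma carriers were counted next: of 18 listed, 15 were tested, of which 10 fell, 1 rose and 4 were not called, with a median log2 fold change of -0.41. Over all tested genes 22.4% were lower and 20.6% higher by the same edgeR rule. Transferrin (TF), the iron carrier, averaged 3435 ± 24.3 CPM in TAF2 and 4752 ± 109 CPM in eGFP libraries (SD, n = 3 each; log2 fold change -0.47, edgeR adjusted p = 7.16e-24). SERPINA6, which carries cortisol, averaged 77.7 ± 1.34 CPM in TAF2 and 130.2 ± 3.7 CPM in eGFP libraries (-0.74, edgeR adjusted p = 4.07e-23). The list was put together with earlier results on liver secreted proteins in these libraries known, so it is no separate evidence of a direction.

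Genes for regulators of ALB and AFP went both ways, with 7 of 17 lower, 3 higher and 7 not called, and a median of -0.09. By the same rule 22.4% of all tested genes were lower and 20.6% higher, the background for this list and the next. NR5A2, a nuclear receptor that activates AFP, averaged 3.95 ± 0.353 CPM in TAF2 and 19.8 ± 1.04 CPM in eGFP libraries (SD, n = 3 each; log2 fold change -2.33, edgeR adjusted p = 6.63e-24). In uptake and recycling of albumin 5 of 8 genes were tested, 2 lower and 2 higher, with a median of -0.01. FCGRT, the receptor that returns albumin to the blood, fell by 0.45 on the log2 scale (edgeR adjusted p = 1.74e-12), and AMN, the membrane anchor of cubilin, by 0.51 (edgeR adjusted p = 4.71e-09).

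Retinoid genes, which handle the cargo of RBP4, had 12 of 22 tested, 4 lower and 2 higher, with a median of -0.06. These counts, and those of the lists below, stand beside 22.4% lower and 20.6% higher over all tested genes. ALDH1A1, which makes retinoic acid, rose by 0.22 (edgeR adjusted p = 5.22e-11), and the receptor RXRA had -0.17 (edgeR adjusted p = 4.32e-05). Thyroid hormone genes, on the side of TTR, had 6 of 8 tested, 4 lower and 1 higher, with a median of -0.46. The deiodinase DIO1 had -1.20 (edgeR adjusted p = 3.81e-15) and the thyroxine carrier SERPINA7, also counted among the plasma carriers, -0.54 (edgeR adjusted p = 2.6e-17). For vitamins D and E 8 of 10 were tested, 2 lower and 3 higher, with a median of 0.09. CYP24A1, which breaks down active vitamin D, averaged 112 ± 2.95 CPM in TAF2 and 57.6 ± 1.49 CPM in eGFP libraries (SD, n = 3 each; 0.96, edgeR adjusted p = 1.71e-25), while the lipid exporter ABCA1 had -0.42 (edgeR adjusted p = 4.89e-17).

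Of 16 genes listed for the making, sensing and breakdown of angiotensin 8 were tested, 5 lower and 1 higher, with a median of -0.31. The background over all tested genes was 22.4% lower and 20.6% higher, here and for the AMBP partners below. The lysosomal protease CTSD had -0.50 (edgeR adjusted p = 4.07e-23) and PRCP, which cuts angiotensin, -0.34 (edgeR adjusted p = 2.29e-11). Both lie on chromosome 11, where 593 genes of at least 5 CPM had a median of -0.27, and the part of that shift in their values was not tested. Of 6 partners of the AMBP products 5 were tested, 2 lower and 2 higher, with a median of 0.08: ITIH3, a heavy chain that is joined to bikunin, had -0.39 (edgeR adjusted p = 1.48e-13), and the convertase FURIN had 0.29 (edgeR adjusted p = 5.04e-10).

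Among 10349 genes of at least 5 CPM, likeness to a gene was measured as the root mean square difference of centred log2 CPM over the 6 libraries. The genes closest to ALB were C8A, a complement component (0.0131), APOH, a phospholipid-binding plasma protein (0.0169), and SLC13A5, the citrate transporter of hepatocytes (0.022), on chromosomes 1, 17 and 17. Those closest to AFP were PIK3R2 (0.0097), MTSS1L (0.0107) and CDC34 (0.0117), on chromosomes 19, 16 and 19. Their log2 fold changes were -0.66, -0.62 and -0.60 beside ALB, and -0.14, -0.15 and -0.13 beside AFP. The genes were picked by likeness over these same libraries, so similar fold changes follow from the choice. They are no separate evidence of shared control, which was not tested.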

How the data were processed

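RNA sequencing of 6 HepG2 libraries was used, made per the labels' protocols from total RNA with an Illumina TruSeq kit and sequenced in 2 rounds on a HiSeq3000. The authors deposited expected counts per gene with RefSeq transcript accessions, and the submitters' processing notes name RSEM and hg38. The sources used here do not give the aligner, annotation release or use of strand. Between 4.18% and 4.45% of expected counts were not whole.

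Expected counts were rounded, filtered with filterByExpr (12902 genes), scaled by TMM and compared in edgeR 4.0.16 (R 4.3.3) by the quasi-likelihood test with the group alone, Benjamini-Hochberg adjusted over all tested genes at 0.05. CPM are counts relative to the TMM-scaled library totals. Intervals are 95% and cover the spread between libraries. The common dispersion corresponds to a variation of 2.75%, small enough that slight differences are called. The test was also run on simulated counts, drawn with the common dispersion for every gene and few changed genes. That setting is simpler than these data, and its outcome is not reported here. All 6 libraries were counted separately, as labelled. Chi-square per degree of freedom was 1.98 to 5.91 within and 27.2 to 30.8 between groups. Libraries of a group thus differed by more than counting error. These values cannot tell separate cultures from repeated preparations of the same culture. The labels give no batch.

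Genes were placed on GRCh38.p14 through RefSeq accessions, or by symbol (AGT), which placed 99.3% of tested genes. Transcript lengths are those of GENCODE 29 transcripts paired with the accessions, averaged where several are paired. Promoters are RefSeq's, found for 7 of the 10 genes (not TTR, TTPA and GC). The 10 genes, 8 pathway lists (105 genes, all found, 1 under an older symbol) and all rules were chosen with earlier results of these data known. Named were all 10 genes, TAF2, up to 2 called genes of each list by smallest p, up to 8 tested neighbours within 1 Mb of ALB or GC, and the 3 genes most like ALB and AFP (log2 of CPM plus 0.5). Some items these rules name are not reported here.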

Additional observations from a re-analysis of the deposited data

How the results depend on the processing

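For ALB, TTPA, A1BG and AGT, 16 of 16 alternatives kept the direction and the call: other scalings, filters, unrounded counts, DESeq2 1.42.0, a replicate block, a 1.2-fold threshold, leaving out each library or the other chromosome 4 genes. ALB ran from -0.63 to -0.60. AFP and RBP4 lost the call against 1.2-fold only, TTR in 11 of 16, and AMBP gained it in 1. With that threshold 1243 genes were called, 467 higher and 776 lower, and 4 of the 10 genes, against 5548, 2662, 2886 and 7. No value named turned round. Same-numbered libraries did not deviate together (correlations of -0.22 to -0.14), so numbers were not taken as pairs. With the replicate block 5250 genes were called, and 6 of the 10. Without a library, 6 to 8 of the 10 were lower and 4800 to 5288 genes were called. With no filter AFM had -1.38 (edgeR adjusted p = 0.0825) and GC no call (0.569). Depth limits AFM and GC.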
